A study of Mus musculus with 2 samples.

Results

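The cells described here are dendritic cells of colon tumours from 2 mouse single-cell RNA libraries, chosen by a rule meant to collect type 2 conventional dendritic cells. A barcode was kept if it had at least 200 genes, under 20% mitochondrial UMIs (unique molecular identifiers, 1 per captured transcript) and at least 5 UMIs of the class II gene H2-Aa. It also needed a UMI of at least 2 of the 6 genes Cd209a, Flt3, Zbtb46, Clec10a, Sirpa and Itgax, 1 of them being Cd209a, Flt3 or Zbtb46. Barcodes with any UMI of Xcr1, Clec9a, Fscn1, C1qa, Cd3e, Cd79a or Retnlg, or with 10 or more UMIs of Epcam, Krt8 and Krt18 together per 10000, were left out. The rule was met by 94 of 13282 barcodes that passed the gene and mitochondrial filters, 7 of 4387 in one library and 87 of 8895 in the other. Every value of the genes in the rule is therefore a description of how the cells were chosen.

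The library labelled KO came from colon tumour tissue of genotype ECM1Flox/Flox, Villin-Cre. The library labelled WT came from the same tissue of genotype ECM1Flox/Flox, so both carry the floxed Ecm1 alleles and the Cre is the labelled difference. Villin is a promoter of intestinal epithelium, so dendritic cells are not the cells in which this Cre is designed to act. The sources used here do not give the tumour model, the age of the mice, how many mice went into a library or the capture chemistry, and the extraction text of the labels describes bulk RNA. With 1 library per genotype there is no replicate check of any difference below, and no test was made. Intervals are 95% intervals that cover counting error only, and genotype, mouse, sex and library preparation cannot be told apart. Xist gave 63 UMIs in the KO cells and 0 in the WT cells, and the Y-linked Ddx3y gave 0 and 75, so the mice of the libraries differ in sex composition as well as genotype.

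Conventional dendritic cells sample antigen in tissue, load it on MHC class II molecules and carry it to lymph nodes, where they prime T cells. The type 2 lineage depends on FLT3 ligand signalling, uses the factor IRF4, presents to CD4 T cells in particular, and shares several surface lectins with monocyte-derived cells, which makes its borders hard to draw. In the intestine a portion of these cells bears the integrin CD103, encoded by Itgae, and dendritic cells of either lineage switch on CCR7 and the chemokines CCL17 and CCL22 when they mature and migrate.

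The borders of the rule were thin in places. H2-Aa was detected at 21 to 139 UMIs in the 7 KO cells (median 51.0) and at 5 to 157 in the 87 WT cells (median 37.0). Only 2 WT cells and no KO cell had 5 to 9 UMIs, and 1 KO and 8 WT barcodes met every other criterion with 1 to 4. Of the 6 supporting genes, 41 WT cells had exactly 2, 33 had 3, 11 had 4, 1 had 5 and 1 had 6. In the KO library 2, 3 and 2 cells had 2, 3 and 4 of them. The 3 genes that can admit a cell did so in different mixtures. In the WT library 31 cells entered through Cd209a alone, 21 through Flt3 alone and 10 through Zbtb46 alone, and the other 25 had more than 1 of the 3. In the KO library 3 cells entered through Cd209a alone, 3 through Zbtb46 alone and 1 through Cd209a and Flt3. Dropping the demand for 1 of these 3 genes would have added 16 KO and 75 WT barcodes. Dropping the exclusion of the neutrophil gene Retnlg would have added 0 and 25, of which 13 had a single UMI, and dropping the T cell gene Cd3e 0 and 18, of which 9 had a single UMI.

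Depth was similar in the selected cells of both libraries. The KO cells held 5157 to 18251 UMIs (median 5916, 60669 in all) with a median of 2110.0 genes, and the WT cells 2680 to 19881 (median 5743, 611042 in all) with 1994. The summed WT counts are thus about as deep per cell but rest on many more cells, and a KO level below 49.4 CPM (UMIs of a gene per 1000000 UMIs of the summed cells) could go undetected. Mitochondrial transcripts took 0.908% and 1.06% of the UMIs, ribosomal protein transcripts 16.3% and 17.9%, and 3 rRNA-related genes 2.32% and 0.315%. Over all barcodes the libraries held 75024663 and 59189995 UMIs, at medians of 7949.5 and 2706 per barcode. They shared 17 barcode sequences, 1 of them a selected cell, and 1 WT cell of the set also passed the gate for endothelial cells.

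The selected cells made up a smaller share of the KO library. They were 0.160% of its filtered barcodes (exact Clopper-Pearson interval 0.0642 to 0.328) against 0.978% in the WT library (0.784 to 1.21), a KO/WT ratio of 0.163 (0.0637 to 0.351). The denominators differ in content, since 1525 of the KO barcodes and 6315 of the WT barcodes were under the epithelial limit. Among those alone the shares were 0.459% (0.185 to 0.943) and 1.38% (1.10 to 1.70), a ratio of 0.333 (0.130 to 0.716). Type 1 dendritic cells, gated by Xcr1 and Clec9a, and mature dendritic cells, gated by Fscn1 and Ccr7, had ratios of 0.867 (0.371 to 1.80) and 0.720 (0.181 to 2.11) over the same denominator. Monocytes (1.42) and macrophages (2.23) had ratios above 1. Over all filtered barcodes the ratios were 0.424 (0.182 to 0.883) for type 1 cells and 0.353 (0.0886 to 1.03) for mature cells. Monocytes were then at 0.697 (0.548 to 0.881) and macrophages at 1.09 (0.918 to 1.30). A lower share of all barcodes was therefore not particular to the selected cells. Of the cells in the 3 dendritic gates, the selected cells were 7 of 20 in the KO library (35.0%, 15.4 to 59.2) and 87 of 153 in the WT library (56.9%, 48.6 to 64.8). The ratio of these shares was 0.616 with an interval of 0.240 to 1.32, so that within the dendritic cells a lower share was not resolved by the counting. Tissue dissociation and capture can set such shares, and their part was not tested.

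**Figure D1:**
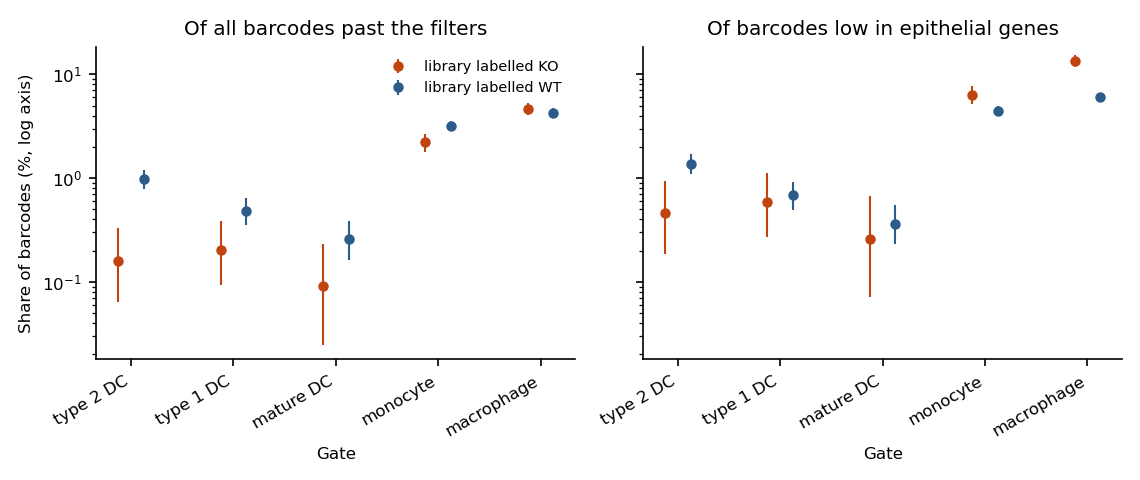
Share of barcodes in 5 gates (x axis) in the libraries labelled KO and WT, in percent on a log axis, of all barcodes past the filters (left) and of barcodes low in epithelial genes (right). Points are shares and bars are 95% Clopper-Pearson intervals of the counts. The type 2 gate has 0.160% and 0.978% on the left and 0.459% and 1.38% on the right, while the macrophage gate is higher in the KO library on the right.

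The genes of the rule are given first, as a description of what was selected. Cd209a, a lectin gene used to mark type 2 dendritic cells, can admit a cell together with 1 more supporting gene, so a level above the other gates was fixed by the choice. Its summed level was 115 CPM in the KO and 383 CPM in the WT cells. In the WT library it was 4.48 CPM in type 1 dendritic cells, 27.3 in monocytes, 31.7 in T cells and 0 in mature dendritic cells and macrophages. A UMI of it was found in 4 of the 7 KO cells and 49 of the 87 WT cells (56.3%). When each cell was thinned to 2000 UMIs, the WT share was 39.1%, against 1.36% of T cells (2.0% unthinned), whose median depth was 2574 UMIs. Flt3, the receptor of the growth factor for all conventional dendritic cells, stood at 65.9 and 85.1 CPM, below the 81.3 and 141 CPM of type 1 cells, and at 3.68 CPM or less in monocytes and macrophages. Zbtb46, a factor of the conventional lineage, stood at 65.9 and 49.1 CPM and was at 0 in monocytes of both libraries. H2-Aa reached 7203 and 5862 CPM, close to the 7026 and 6686 CPM of type 1 cells and far above the 277 and 494 CPM of monocytes.

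Markers that the rule did not use were less one-sided. Mgl2, a lectin gene of type 2 cells, was at 65.9 CPM in the KO and 165 CPM in the WT cells, above type 1 cells (0 and 69.5) and monocytes (0 and 2.21) but near macrophages (115 and 94.5). Irf4 was at 16.5 and 133 CPM, and its WT level was exceeded in the T cell gate (220 CPM) and the B cell gate (331 CPM). Irf8, the factor of type 1 and plasmacytoid cells, was at 98.9 and 262 CPM against 1635 and 1615 in type 1 cells. The 16 type 2 markers outside the rule summed to 1582 CPM in the KO and 2113 CPM in the WT cells, above type 1 cells (479 and 999) and mature cells (162 and 677) but close to monocytes (1414 and 1981) and endothelial cells (1805 and 1824). The 18 subset genes outside the rule summed to 445 and 720.1 CPM, below type 1 cells (587 and 919) and macrophages (976 and 1063). The markers that were free to vary therefore did not set these cells apart from all other gates, and the name type 2 rests on the genes of the rule. Summed marker lists of other cell types were low but not absent. Macrophage markers added up to 412 CPM in the KO and 745 CPM in the WT cells, plasmacytoid markers to 313 and 743, and monocyte markers to 3379 and 4404. Neutrophil markers added up to 231 and 663 CPM, with S100a8 at 1 and 113 UMIs and Ly6g at 0 in both. B cell markers summed to 16.5 and 6.55 CPM, with Ms4a1, Pax5, Cr2 and Ebf1 at 0, and fibroblast markers to 16.5 and 1.64, with Col1a1, Col1a2 and Dcn at 0.

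The 87 WT cells were not of 1 kind. They were sorted into 5 marker groups by a scheme that was drawn up after their values had been seen, so the groups are a description and have no test. Cells with a Siglech UMI came first, then those with at least 2 UMIs of Ccr7, then any of Itgae, then any of Cd209a. The Cd209a group was the largest, with 41 cells (47.1%), followed by Ccr7 with 22 (25.3%), Itgae with 13 (14.9%), the remaining cells with 7 (8.05%) and Siglech with 4 (4.60%). The 7 KO cells fell into the Cd209a group (3 cells), the Ccr7 group (3) and the Itgae group (1). That Itgae cell of the KO library held 1 UMI of Itgae and none of Mgl2 or Cd209a, while the WT Itgae cells held 2 to 9 of Itgae. No KO cell fell into the Siglech or remaining group. With the floor of 3 counts put in place of 0 of 7 cells, the limit on such a share is 42.9%. Median depth ran from 4485 UMIs in the WT Cd209a group to 11865 in the WT Itgae group, and deeper cells have more chances to show the single UMI that places them in an earlier group.

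**Figure D2:**
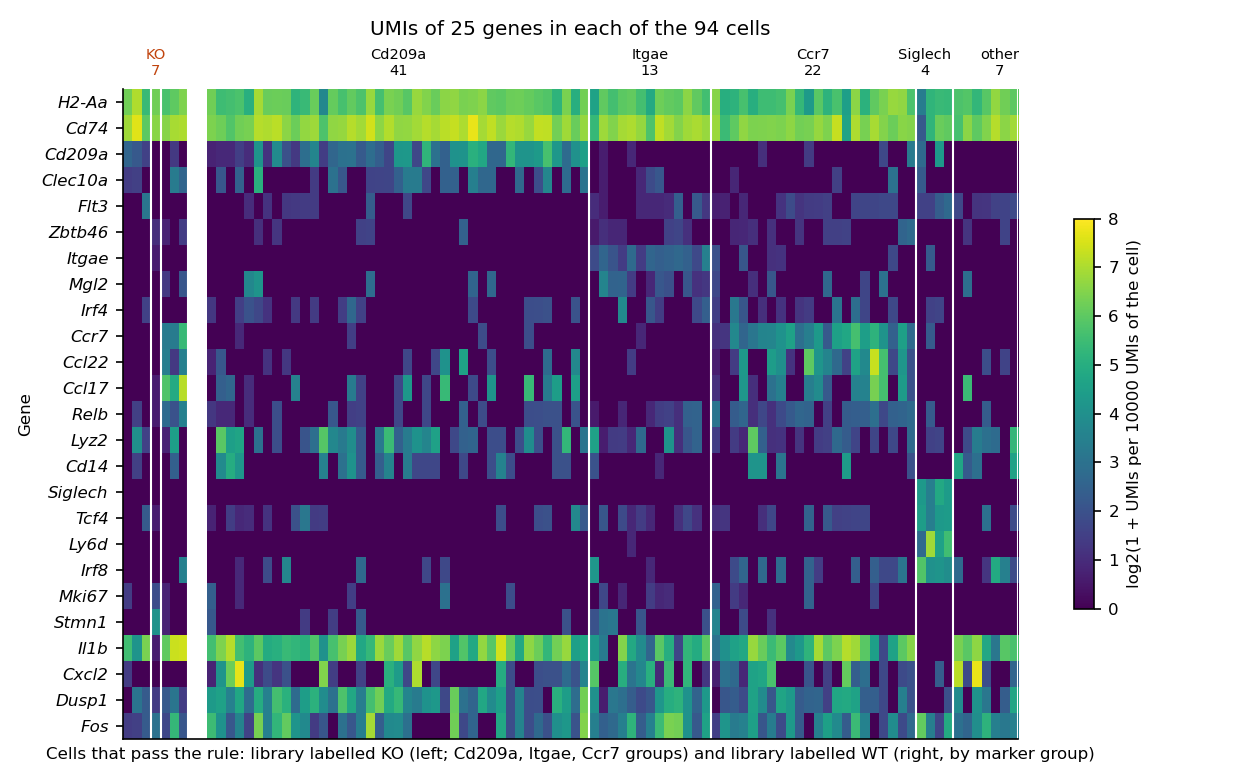
UMIs of 25 genes (rows) in each of the 94 cells (columns), as log2(1 + UMIs per 10000 UMIs of the cell) in colour, with the 7 cells of the library labelled KO on the left and the 87 of the library labelled WT on the right, ordered by marker group with the number of cells above each. H2-Aa and Cd74 run through all groups, Ccl22 is densest in the WT Ccr7 group (18 of 22 cells), and Ly6d is high in the 4 Siglech cells.

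The WT Cd209a group carried genes shared with monocyte-lineage cells. Beside the other WT cells, it had 559 against 92.0 CPM of Ms4a4c, found in 30 of its 41 cells, and 1764 against 381 CPM of Wfdc17, found in 39. Vim, which encodes the intermediate filament vimentin, was at 2415 against 715 CPM. Cd209a itself was at 928 CPM. Class II transcripts summed to 27887 CPM, and every one of the 41 cells held Il1b, which encodes the inflammatory cytokine IL-1 beta and was at 6511 CPM. Lyz2, the lysozyme gene of monocytes and macrophages, was highest here, at 1188 CPM in 30 of the 41 cells, beside 508 CPM in the Ccr7 group and 543 CPM in the Itgae group. A few cells held much of it, with 70, 34, 27 and 25 UMIs in the highest cells of the Cd209a group. The highest cell of the Ccr7 group held 58 and that of the Itgae group 45.

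The WT Itgae group had the highest level of Mgl2, at 308 CPM in 10 of 13 cells. Ntpcr stood at 131 CPM against 6.55 in the other WT cells, Pilra at 196 against 21.8 and Ear2 at 78.6 against 4.36. Cd209a was at 13.1 CPM in this group, so the Itgae and Cd209a cells barely shared their defining transcripts, partly by construction of the order. Class II transcripts summed to 26400.4 CPM, near the Cd209a group, and Il1b was at 2757 CPM.

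The WT Ccr7 group resembled maturing dendritic cells although Fscn1, the gene of the mature gate, was at 0 by the rule. Ccl22, a chemokine that attracts CCR4-bearing T cells, was at 1431 against 84.9 CPM and found in 18 of 22 cells. Il4i1, an amino acid oxidase of mature dendritic cells, was at 361 against 8.94 CPM, Fabp5 at 2739.9 against 746 and Relb, an NF-kB subunit, at 349 against 93.8. Mature dendritic markers, with Ccr7 among them, summed to 4287 CPM in this group. Class II transcripts summed to 21943 CPM and Cd209a was at 36.7 CPM.

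The smallest group went against the label. The 4 WT cells with Siglech had 4759.6 against 1.69 CPM of Ly6d, 1765 against 25.3 of Ccr9, 2834 against 84.4 of Bst2 and 2674 CPM of Irf8. Plasmacytoid markers, with Siglech among them, summed to 15134 CPM there and to 263 to 340.5 CPM in the other WT groups. Class II transcripts were at their lowest, 9198 CPM, and Il1b was not detected. The 7 remaining WT cells, which entered through Flt3 or Zbtb46, had macrophage markers at 1827 CPM, above the 267 to 863 CPM of the other WT groups, although C1qa was at 0 by the rule.

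Between the libraries, 2708 genes had a mean of at least 50 CPM and at least 30 summed UMIs. Of these 10.0% were at least 2-fold higher in the KO cells and 13.8% at least 2-fold lower, 272 and 375 genes, with a median log2 ratio of 0.01. The KO counts behind them were small, with a median of 7.00 UMIs per gene against 68.0 in the WT cells, and 64.0% of the genes had fewer than 10 KO UMIs. Counts of genes past 2-fold in the lists below are to be read beside these 2 percentages, and no list is singled out by them. The balance of the 2 turned with the choices made: 10 summed UMIs as the only filter gave 1373 higher and 755 lower genes, and leaving out the 5 deepest cells of each library gave 534 and 154.

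Most class II transcripts were at like levels in both libraries, and the difference was not tested. Of 11 class II genes measured, 1 was over 2-fold higher and 2 lower in the KO cells, at a median log2 ratio of 0.09 (0.41 without the 5 deepest cells of each library), and the list summed to 26867 CPM in the KO and 24931 CPM in the WT cells. H2-Ab1, a class II beta chain, was at 5769 and 5435 CPM (ratio 1.06, 0.948 to 1.19), and H2-Eb1, another beta chain, had a ratio of 1.05. Cd74, the invariant chain that escorts class II molecules, ran from 62.1 to 200.5 UMIs per 10000 in the KO cells (median 115) and from 3.83 to 213 in the WT cells (median 102). The 2 sets of cells overlapped, with 1 WT cell above the highest KO cell and 9 below the lowest. H2-DMb1, a chain of the peptide exchange factor, was at 560.4 and 267 CPM (2.10, 1.41 to 3.06), and its paralog H2-DMb2 at 65.9 and 160.4 CPM (0.411, 0.110 to 1.09). These paralogs are close in sequence and reads may be shared between them. Of 18 class I genes 3 were over 2-fold higher and 1 lower, at a median of 0.20. The peptide transporter Tap1 was at 198 and 80.2 CPM (2.47, 1.19 to 4.71), while the light chain B2m was at 1038 and 1614 CPM (0.644, 0.491 to 0.831).

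Of 17 maturation and costimulation genes, 2 were over 2-fold higher and 1 lower in the KO cells, at a median of -0.34. The list summed to 4846 and 4809.8 CPM. The costimulatory ligand Cd86 was at 115 and 187 CPM with an interval of the ratio that includes 1 (0.618, 0.243 to 1.32), and Cd83, a surface glycoprotein of mature cells, was at 742 and 802 CPM. Cd274, which encodes the inhibitory ligand PD-L1, was at 132 and 259 CPM (0.510, 0.216 to 1.03). Ccr7, the receptor for lymph node homing, was at 692 and 340.4 CPM (2.03, 1.42 to 2.84), with all 42 KO UMIs in 3 cells. Il4i1 had 21 KO and 63 WT UMIs, 346 and 103 CPM (3.36, 1.95 to 5.58).

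Ccl17, whose product attracts CCR4-bearing T cells, was the gene with the clearest higher level in the KO cells outside histone and cell cycle genes. Its UMIs in the 7 KO cells were 0, 0, 0, 1, 19, 73 and 82, and the last 3 are the cells of the Ccr7 group. Per 10000 UMIs the KO median was 0.548 and the highest cell 139, while the WT cells ran from 0 through a median of 0 to 80.5, with a UMI in 31 of 87. Summed, Ccl17 was at 2885 CPM in the KO and 417 CPM in the WT cells, a ratio of 6.91 (5.67 to 8.41). Within the Ccr7 groups it was at 6716 CPM in 3 KO cells and 795 CPM in 22 WT cells, of which 14 had a UMI. Ccl22, which is often made together with it, went the other way in the sums of the same cells, at 772 CPM in the KO and 1431 CPM in the WT Ccr7 group. The 3 KO cells held 13, 1 and 6 UMIs of Ccl22, and 1 WT cell held 73 of the 234 in its group. The direction of Ccl22 thus rests on few cells and was not tested. The mature dendritic gate, made of other cells, had 2752 and 1245 CPM of Ccl17. Leaving out the richest cell of each library gave a log2 ratio of 2.24 in place of 2.79 for Ccl17. Leaving out the Ccr7 groups gave -3.30, so the higher sum rests on those 3 KO cells.

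Most other cytokine and chemokine genes were lower in the KO sum, and the part of transcripts from outside the cells was not tested. Of 8 cytokine genes 6 were over 2-fold lower and none higher, at a median of -1.77, and of 13 chemokine genes 7 were lower and 1, Ccl17, higher, at -1.06. Il1rn, the antagonist of the IL-1 receptor, was found in 2 of 7 KO and 47 of 87 WT cells, at 115 and 787 CPM (0.147, 0.0586 to 0.304). Per 10000 UMIs, 34 WT cells were above the highest KO cell, which had 3.73. Ptgs2, which encodes the prostaglandin synthase COX-2, was at 49.4 and 659.5 CPM (0.0750, 0.0154 to 0.221), with 40 WT cells above the highest KO cell. Tnf had 1 KO and 122 WT UMIs (0.0826, 0.00207 to 0.469), and the IL-6 family cytokine Osm 3 and 247 (0.122, 0.0251 to 0.362). The WT UMIs of Tnf were in 27 of 87 cells, with 36 and 34 of them in 2 cells, so its ratio rests largely on these 2. Il1a had no UMI in the KO cells and 105 in 23 WT cells, which makes it at least 3.48-fold lower against a floor of 3 counts over the group. Without the 5 deepest cells of each library, which leaves 2 KO cells, the cytokine median was 0.17. Among cells with Cd209a the chemokine median was -0.04.

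Il1b did not share this direction. Its UMIs in the 7 KO cells were 1, 9, 27, 43, 88, 100 and 107, and the 3 highest belong to the Ccr7 cells and the lowest to the Itgae cell. In the WT cells it ran from 0 through a median of 46.5 to 173 per 10000 UMIs. The sums were 6181 and 4833 CPM (1.28, 1.15 to 1.42), and the cells of the libraries overlapped. Il1b makes up most of the cytokine sum, so the list summed to 6889.8 and 7312 CPM although its median gene was far lower. Tgfb1, which encodes a regulatory cytokine, was also at like levels, 329.7 and 350.2 CPM (0.941).

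The lower chemokine genes were unevenly spread over the WT cells. Cxcl2, a neutrophil attractant, had 1 UMI in the KO cells and 1255 in the WT cells (0.00803, 0.000203 to 0.0448). Other gates held it too, with 699 CPM in KO and 1316 CPM in WT T cells and 18606 and 26783 CPM in neutrophils, and the part of transcripts from outside the cell in these values was not tested. A few cells carried most of it within the WT groups. Of the 153 UMIs in the 22 Ccr7 cells (936 CPM), 4 cells held 21, 23, 34 and 45. Of the 294 UMIs in the 7 remaining cells (6472 CPM), 2 cells held 127 and 161 and no other held more than 2. The Itgae group was at 1938 CPM, the Cd209a group at 2211 CPM and the Siglech group at 107 CPM. Ccl24, an eosinophil attractant, had 0 KO and 305 WT UMIs in 6 cells, with 66.6% in 1 cell and 238 in 2 of the 7 remaining cells. It was at least 10.1-fold lower, and its log2 bound was -1.26 without the richest WT cell. Ccl3, which attracts monocytes, had 0 and 111 UMIs, and Cxcl10, an interferon-induced T cell attractant, 0 and 105, at least 3.67-fold and 3.48-fold lower. Without the richest WT cell their log2 bounds were -0.93 for Ccl3 and -0.80 for Cxcl10. Ccl4 was at 297 and 591 CPM (0.502, 0.294 to 0.805) and Cxcl16, a membrane-bound chemokine, at 264 and 601 CPM (0.439, 0.248 to 0.723).

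Immediate early genes are switched on within minutes of a stimulus and also by tissue digestion. The list that holds them also holds genes tied to quiescence, and it was lower in the KO cells. It is called the immediate early list here. Of 24 measured, 12 were over 2-fold lower and none higher in the KO cells, at a median of -0.96, and their sum was 14291 CPM in the KO and 21115 CPM in the WT cells. Dusp1, a phosphatase that ends MAP kinase signalling, was 1 of them. Its UMIs in the 7 KO cells were 0, 1, 2, 3, 4, 5 and 5. Per 10000 UMIs the KO cells ran from 0 through a median of 3.73 to 7.56, and the WT cells from 0 through 10.2 to 78.4. The sets overlapped at the low end, and 49 of 87 WT cells were above the highest KO cell. Summed, Dusp1 was at 329.7 and 1440.2 CPM (0.229, 0.139 to 0.356).

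Fos, a subunit of the AP-1 factor, had 1, 1, 2, 2, 3, 13 and 26 UMIs in the KO cells, with the highest in a Ccr7 cell. Per 10000 UMIs they ran from 1.69 through 3.40 to 39.3, and the WT cells from 0 through 9.68 to 119.9, with 11 WT cells above the highest KO cell. The sums were 791 and 1751 CPM (0.452, 0.331 to 0.603). Fosb, its paralog, was at 214 and 943 CPM (0.227, 0.120 to 0.392). Atf3, a stress-induced factor, was at 264 and 854 CPM (0.309, 0.175 to 0.506), and Zfp36, which destabilises cytokine transcripts, at 462 and 1491 CPM (0.310, 0.205 to 0.450). For each of Atf3 and Zfp36, 35 WT cells were above the highest KO cell. Ier3 had a single KO UMI against 328 in 54 WT cells (0.0307, 0.000775 to 0.172), and 53 WT cells were above the highest KO cell. The list was not lower throughout. Jun was at 1170.3 and 1216 CPM (0.962, 0.744 to 1.23), Klf4 at 363 and 358 (1.01), Jund at 1467 and 1011 (1.45, 1.15 to 1.81) and the growth inhibitor Btg2 at 1368 and 826 (1.66, 1.30 to 2.09).

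In the sums, the difference was larger in the Cd209a group than in the Ccr7 group, and these groups were drawn up after the values were seen. The immediate early list summed to 11326 CPM in the 3 KO Cd209a cells and 23578 CPM in the 41 WT Cd209a cells, but to 16404 and 17638 CPM in the 3 and 22 Ccr7 cells. Dusp1 was at 363 and 2241 CPM in the Cd209a groups and at 425 and 875 CPM in the Ccr7 groups. Fos was at 242 and 1946 CPM in the former and at 1197 and 1003 CPM in the latter, where 26 KO UMIs came from 1 cell. That cell also held 1 UMI of Cd209a, and the list summed to 15351 CPM in the 4 KO cells with any Cd209a. In the Itgae group Dusp1 had 3 UMIs in the 1 KO cell and 1 to 32 in the 13 WT cells. With 3 KO cells in each of the Cd209a and Ccr7 groups, whether the groups differ in this was not tested. Lower Dusp1 in the KO library was also measured in all 12 other gates compared, with 298 and 779.7 CPM in type 1 dendritic cells, 682 and 3356 in monocytes, 847 and 2036 in macrophages, 1544 and 4539 in neutrophils, 560.5 and 1631 in T cells and 470.3 and 690.4 in epithelial cells.

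**Figure D3:**
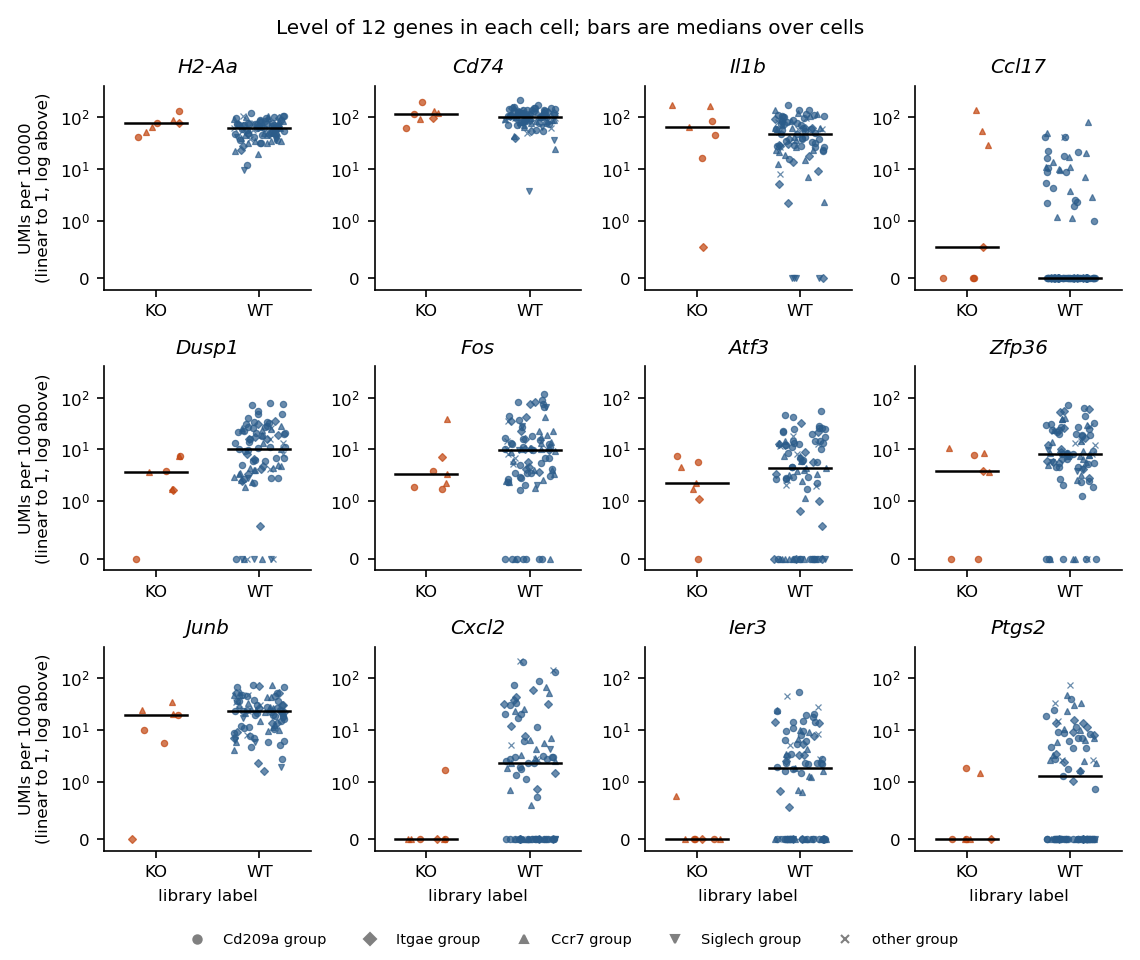
UMIs per 10000 UMIs of the cell (y axis, linear near 0 and logarithmic above) for 12 genes in the 7 cells of the library labelled KO and the 87 of the library labelled WT, with 1 point per cell, marker shapes by marker group and bars at the medians. Dusp1 has KO cells between 0 and 7.56 with 49 WT cells above them, while Il1b and Cd74 overlap, and Ccl17 is high in the 3 KO cells of the Ccr7 group.

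Promoters of Fos, Fosb, Dusp1 and Cxcl2 are shown. TGACG is the core of the cyclic AMP response element, through which some immediate early genes can be induced. Whether this site has a part in the lower levels was not tested. The sequences are the 200 bases before the RefSeq start site in the build GRCm38.p6, read 5′ to 3′ on the strand of the gene, whereas the counts were made on GRCm39. TGACG on either strand is in capitals for Fos (chr12:85473690-85473889, plus strand), Fosb (chr7:19310046-19310245, minus strand) and Dusp1 (chr17:26508473-26508672, minus strand). In Cxcl2 (chr5:90903699-90903898, plus strand) the capitals mark GGG and TTTCC with any 2 bases between them, a form of the kappa B site bound by NF-kB.
Fos: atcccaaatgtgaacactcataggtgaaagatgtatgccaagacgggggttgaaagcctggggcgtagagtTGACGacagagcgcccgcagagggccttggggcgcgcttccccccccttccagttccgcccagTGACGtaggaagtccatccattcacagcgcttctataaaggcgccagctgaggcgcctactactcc
Fosb: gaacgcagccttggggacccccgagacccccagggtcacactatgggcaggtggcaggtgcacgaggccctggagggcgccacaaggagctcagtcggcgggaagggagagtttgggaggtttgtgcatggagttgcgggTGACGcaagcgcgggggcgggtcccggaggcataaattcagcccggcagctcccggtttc
Dusp1: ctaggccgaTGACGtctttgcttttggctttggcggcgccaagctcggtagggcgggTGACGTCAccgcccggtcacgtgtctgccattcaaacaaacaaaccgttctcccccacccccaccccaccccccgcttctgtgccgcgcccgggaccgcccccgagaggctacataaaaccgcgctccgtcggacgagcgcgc
Cxcl2: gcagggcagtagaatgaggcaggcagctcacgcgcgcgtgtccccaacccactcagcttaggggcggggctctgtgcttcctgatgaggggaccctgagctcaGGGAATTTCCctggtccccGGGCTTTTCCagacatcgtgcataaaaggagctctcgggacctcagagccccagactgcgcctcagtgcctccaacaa
TGACG was found 129 to 125 and 66 to 62 bases before the start of Fos, 60 to 56 bases before that of Fosb and 191 to 187 and 143 to 139 bases before that of Dusp1, where a match on the other strand completes the palindrome TGACGTCA. Over 32851 promoters of this length 15.7% held TGACG on either strand. Of the 24 measured genes of the immediate early and quiescence list, 21 had a promoter among those searched. TGACG was held by 11 of these, and by 8 of the 11 that were over 2-fold lower. The full TGACGTCA was in 1.47% of promoters and in Dusp1 and Btg2 of the list. The kappa B form, searched on both strands, was in 1.18% of promoters and at 2 places in Cxcl2, 97 to 88 and 78 to 69 bases before the start, and in none of the 21. A match describes letters in a window and is no evidence of binding in these cells.

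Transcription factors of dendritic cells were lower as a list. Of 17 measured, 10 were over 2-fold lower and 1 higher, at a median of -1.30, and the list summed to 3527 and 5487 CPM. Irf4 had 1 KO and 81 WT UMIs (0.124, 0.00311 to 0.713), and Irf8 had 6 KO UMIs, all in 1 cell, and 160 WT UMIs (0.378, 0.137 to 0.840). Of these 160, the 4 Siglech cells held 29, 8, 8 and 5, and 1 cell of the Itgae group held 35. Whether Irf8 was lower apart from these WT cells was not tested. Id2 was at 198 and 649.7 CPM (0.304, 0.156 to 0.538), and Cebpb, a factor of myeloid inflammation, at 462 and 1137 CPM (0.406, 0.268 to 0.592). The 1 higher gene was Spi1, which encodes the myeloid factor PU.1, at 791 and 314 CPM (2.52, 1.80 to 3.47), and found in all 7 KO and 72 WT cells. Without the 4 Siglech cells the median of the list was -1.05, and among cells with Cd209a alone, 4 and 49, it was -0.34. The 2 shallowest KO cells and 82 WT cells, left after the 5 deepest of each library were taken out, gave 0.20, so this list rests on few cells.

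Receptors that sense microbes and cytokines were mixed. Of 7 pattern recognition genes 4 were over 2-fold lower and 1 higher, at a median of -1.62, which was 1.12 without the 5 deepest cells of each library. Clec4n, which encodes the fungal sensor Dectin-2, was not detected in the KO cells and had 120 UMIs in 38 WT cells, at least 3.97-fold lower. Cd14, the coreceptor for lipopolysaccharide, was at 65.9 and 337 CPM (0.196, 0.0528 to 0.508). Clec7a, which encodes the beta-glucan receptor Dectin-1, was higher at 890.1 and 419 CPM (2.12, 1.55 to 2.86), although only 3 KO cells held it. Of 17 cytokine receptor genes 5 were lower and 1 higher, at -0.40. Csf2rb, the shared chain of the GM-CSF receptor, was at 297 and 707 CPM (0.420, 0.246 to 0.671), and Csf2rb2, a close paralog whose reads may be shared with it, had 1 and 104 UMIs. Ifngr1, a chain of the interferon gamma receptor, was at 527 and 252 CPM (2.09, 1.38 to 3.08) and was found in all 7 KO cells. Plaur, the urokinase receptor gene, had 0 and 108 UMIs, at least 3.57-fold lower, with a log2 bound of -1.18 without the richest WT cell. Neat1, a nuclear long noncoding RNA, was at 148 and 936 CPM (0.158, 0.0721 to 0.303), with 35 WT cells above the highest KO cell.

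Cell cycle and histone genes were higher in the KO sum, with most of their counts in 1 cell. Of 10 cell cycle genes 5 were over 2-fold higher and 1 lower, at a median of 1.12, which was -0.41 among cells with Cd209a. The Itgae cell of the KO library, the deepest at 18251 UMIs, held all 27 KO UMIs of the linker histone H1f5 and of the replication factor Pclaf and all 12 of the mitotic gene Cdca8. It also held 96.2% of the 26 of Birc5, 96.8% of the 31 of Stmn1, which encodes a microtubule regulator, and 91.9% of the 123 of Hmgb2. The histone genes H2ac8 (40 and 36 UMIs), H4c4 (23 and 21), H1f4 (17 and 18) and H2ac24 (26 and 46) had ratios from 5.69 to 11.2, and reads of such near-identical copies are uncertain. Without the richest cell of each library the log2 ratio of Stmn1 was -1.81, that of Birc5 -0.95 and that of Pclaf -0.31. The mitochondrial enzyme gene Mdh2 (135 and 500 UMIs, ratio 2.72) and Ndufa8 of respiratory complex I (31 and 59, 5.29) had 54.8% and 77.4% of their KO UMIs in 1 cell. A UMI of the proliferation genes Mki67 or Top2a was found in 4 of 7 KO cells and 21 of 87 WT cells, and those WT cells were deeper, at a median of 11613 against 5088 UMIs.

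The remaining lists lay near the median of all genes or had few members. Of 21 NF-kB genes 1 was over 2-fold higher and 4 lower at a median of -0.32, with the inhibitor Nfkbia at 2275 and 2116 CPM (1.07, 0.895 to 1.28) and the feedback enzyme Tnfaip3 at 214 and 556 CPM (0.385, 0.203 to 0.667). Actin and adhesion genes had a median of 0.29 over 21 genes with 1 higher, lysosomal genes -0.39 over 17, Fc receptor genes -0.42 over 8, heat shock genes -0.35 over 11 and autophagy genes 0.29 over 9. Glycolysis and hypoxia genes had a median of 0.09 over 11, with Gapdh at 1005 and 854 CPM. Migration receptors had -0.74 over 8, with Cxcr4 at 247 and 553 CPM (0.447, 0.247 to 0.748) and Gpr183, which positions dendritic cells, at 247 and 244. Intestinal tolerance genes had -0.59 over 9, interferon-stimulated genes -0.77 over 4, and subset genes of type 2 cells -1.37 over 4. Ecm1, the floxed gene, was not detected in the KO cells and gave 12 UMIs in 5 WT cells, which is too few for a fold. Sqstm1, an autophagy adaptor named in the title of the series, had 5 and 157 UMIs (0.321, 0.103 to 0.765), and Cxcl1 had 4 and 30, the former in 1 cell.

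The lists were then placed beside the same lists in other gates of the same libraries, which share no selected cell except for 1 WT cell in the endothelial gate. The immediate early median of -0.96 stood between -0.24 in type 1 dendritic cells and -1.17 in monocytes, with -0.92 in mature dendritic cells, -0.55 in macrophages, -0.59 in T cells, -0.52 in B cells and -0.46 in neutrophils. The summed list was not lower in every gate, at 23944 CPM in the KO and 18140.4 CPM in the WT library in endothelial cells, 22115 and 14864 in fibroblasts, 16305 and 12409 in plasma cells and 16423 and 16429.6 in epithelial cells. The chemokine median of -1.06 stood beside -1.13, -0.86, -0.56 and -0.73 in type 1 cells, mature cells, monocytes and macrophages, and beside 0.56 in T cells, -0.08 in neutrophils and -2.53 in B cells. Class II genes were at 0.09 in the selected cells and at -0.14, -0.42, 0.10 and 0.23 in those 4 gates, with -0.02 in B cells, and at -2.18 in T cells and -3.12 in neutrophils. The dendritic transcription factor list was at -1.30 in the selected cells, beside 0.02 in type 1 cells, -0.70 in mature cells, -0.39 in monocytes and -0.32 in macrophages. The cytokine median of -1.77 stood beside -1.02 in monocytes, -0.47 in macrophages, -0.43 in T cells, -0.59 in neutrophils and -3.58 in B cells. Pattern recognition, at -1.62, stood beside -1.17 in type 1 cells, 0.05 in monocytes, 0.01 in macrophages, -0.23 in neutrophils and -2.79 in B cells. Neutrophil markers summed to 997 CPM in KO and 11935 CPM in WT B cells. The part of transcripts from outside the cells in these lists was not tested. Whether any of these gates differ from the selected cells was not tested.

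**Figure D4:**
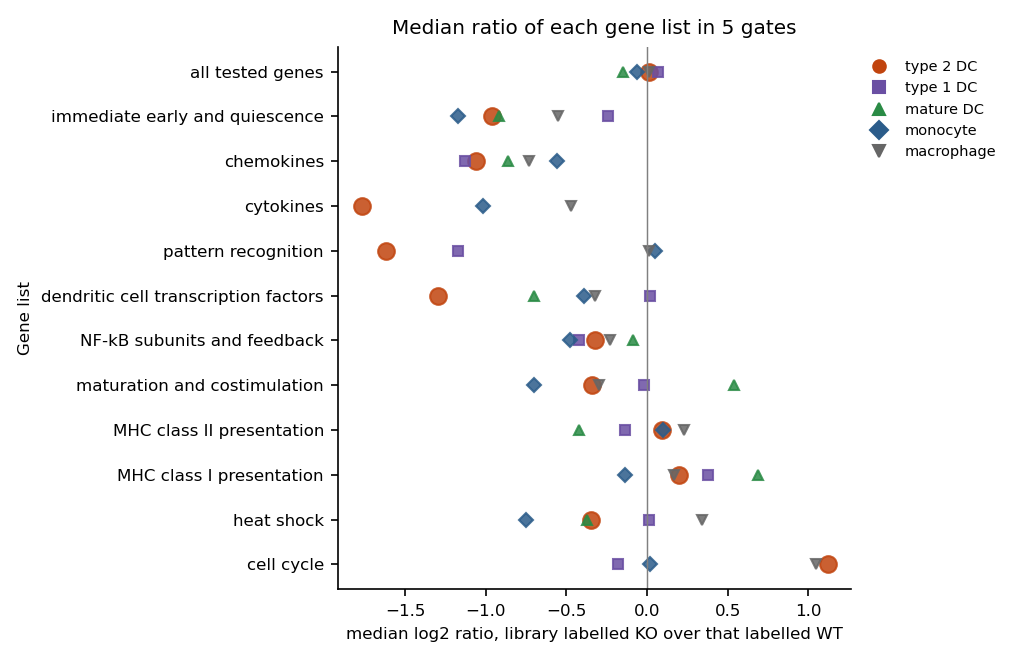
Median log2 ratio (KO over WT, x axis) of the measured genes of 12 lists (y axis) in 5 gates, 1 symbol per gate. The immediate early and quiescence list is below 0 in all 5 gates, from -0.24 in type 1 dendritic cells to -1.17 in monocytes, and MHC class II genes lie between -0.42 and 0.23.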

How the data were processed

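Barcode-by-gene UMI counts of the 2 libraries, whole numbers that are not normalized, were used as deposited by the authors, who made them with Cell Ranger 7.2.0 per the file headers. The build was GRCm39 per the submitters' processing notes, and the sources used here do not state the alignment settings or any filter before deposit. The files hold 14408 barcodes, 4896 KO and 9512 WT, and 55357 genes. Members and gene lists were chosen with earlier results of these data known. The sequences come from RefSeq.

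UMIs of the selected cells were summed per library and divided by their total to give CPM. Genes needed a mean of 50 CPM and 30 summed UMIs. Ratios of CPM have conditional binomial intervals and shares have Clopper-Pearson ones. Both are exact, at 95%, and cover counting error only. A gene at 0 was set to a floor of 3 counts over the group. The interval script was tested on simulated data. For shares at equal depth each cell was thinned to 2000 UMIs, and no selected cell was shallower. The other gates used the same filters.

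Named genes were the 12 higher and the 12 lower with the interval bound furthest from 1, provided that the level in the higher library reached 10% of that in the highest gate. Genes of the rule and mitochondrial, ribosomal, immunoglobulin, sex-linked and predicted genes were left out, and genes of the 22 lists were described beside them. Values of 1 of the 24 and of 1 marker are not reported here. Of 427 list symbols 425 were found. The other genes named in the marker groups were chosen after their values were seen. The automatic Scrublet threshold called 2 KO and 0 WT barcodes, so it had not worked. Removing the 154 KO and 633 WT barcodes with the highest scores took out 0 and 2 selected cells, which were kept in the values above. Alternatives changed the rule, the filters, the scaling and the cells left out. Python 3.11.15, numpy 2.4.6, scipy 1.17.1, pandas 2.3.3, scanpy 1.11.5 and matplotlib 3.10.9 were used.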

Additional observations from a re-analysis of the deposited data

How the results depend on the processing

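No paired analysis was possible because each genotype has 1 library, and for the same reason no replicate could be left out. With 7 KO cells, depth limits every gene value, and most KO sums rest on under 10 UMIs. The share of selected cells was lower in the KO library under every alternative to the rule that was run, with ratios of 0.109 to 0.317 of all barcodes and 0.218 to 0.647 of those low in epithelial genes. The last, 0.647 under the stricter rule, has an interval of 0.197 to 1.67, so the lower share was no longer resolved there. Of 281 values of the named genes under the alternatives, several of which change little by construction, 220 stayed within their interval, 52 moved and 9 turned direction. Leaving out Ccr7 cells, leaving out Siglech cells, leaving out the richest cell per gene, and wider limits for Retnlg, Cd3e and epithelial genes were chosen after seeing the data.

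Where a value moved, the cause was not tested except that fewer cells or genes entered. Among cells with Cd209a (4 KO, 49 WT) 141 genes were at least 2-fold higher, and the medians were -0.53 for cytokines, -0.04 for chemokines, -1.05 for heat shock and -0.41 for cell cycle genes, with Mdh2 at -1.99. Under a stricter rule (5 and 32 cells) 85 genes were higher and 174 lower, with -0.60 for cytokines, -1.14 for heat shock, -0.63 for cell cycle, -1.04 for Stmn1 and -0.16 for Pclaf. Without the 5 deepest cells of each library (2 and 82 left) 534 were higher and 154 lower, with 0.41 for class II, 1.12 for pattern recognition, 0.17 for cytokines, 0.17 for cell cycle, 0.20 for transcription factors, -0.76 for Ccl17 and -2.01 for Mdh2. Without Ccr7 cells (4 and 64) the medians were -1.03 for cytokines, 2.02 for cell cycle and -1.19 for hypoxia, and Ccl17 was at -3.30. Without the richest cell Birc5 was at -0.95, Stmn1 at -1.81 and Pclaf at -0.31. A mean of 200 CPM gave 64 higher and 66 lower genes, 10 summed UMIs alone 1373 and 755 with -0.61 for cytokines, and a 1.5-fold limit 633 and 645.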
